A study of Drosophila melanogaster with 2 samples.

Results

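Jim is a C2H2 zinc finger protein of Drosophila melanogaster, and its recovery on chromatin was read here at a stretch of chromosome arm 3L with an unusual number of closely spaced regions. The stretch holds the protein-coding gene CG43389 (FBgn0263246) and the long noncoding RNA gene lncRNA:CR43626 (FBgn0263617). Its members are the regions whose summit, the point of highest signal given in the list, lies in the bodies of these genes or within 5 kb on either side. This gave 7 of the 1476 regions of the list thresholded on the irreproducible discovery rate (IDR), a measure of how well ranks repeat between replicates. It gave 13 of the 30000 regions of the pooled list, 13 of 30000 in replicate 1 and 15 of 29999 on the 6 main chromosome arms in replicate 3. The 1476 IDR regions were exactly the strongest of the pooled list. A place among them does not by itself show that a region repeated in both replicates. The genes were selected on these regions, so the number and strength of regions at the locus are a description and carry no test.

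The samples were whole larvae of the third instar at the wandering stage, with both sexes pooled, in 1 group of 2 biological replicates numbered 1 and 3. All larvae came from a jim-GFP line, in which Jim carries a C-terminal tag of green fluorescent protein (GFP), and chromatin was sonicated and immunoprecipitated with an antibody to that tag. Libraries were sized at 200 to 325 bp in replicate 3 and at 175 to 275 bp in replicate 1, per the labels. A control experiment is named there and was not analysed here, and the number of reads behind each list is unknown. In whole larvae, a site held strongly in few cells and a site held weakly in many cannot be told apart.

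In chromatin immunoprecipitation followed by sequencing (ChIP-seq), a protein bound to DNA, directly or through partners, leaves a local pile of reads that a peak caller reports as a region. C2H2 zinc finger proteins contact DNA through finger repeats, and many act as transcriptional regulators. Long noncoding RNA genes can serve as precursors of microRNAs, short RNAs that pair with messenger RNAs through a seed near their 5′ end and lower their output. The longer lncRNA:CR43626 transcripts contain the hairpin of mir-282, a conserved insect microRNA. CG43389 encodes a short protein for which no function is given in the annotation.

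Coordinates are those of dm6, counted from 1. CG43389 occupies 3248015 to 3249044 on the plus strand of 3L, with 1030 bp in all and a coding sequence of 48 codons at 3248664 to 3248807. lncRNA:CR43626 follows after 295 bp on the same strand, at 3249340 to 3254504, a length of 5165 bp. It has 3 annotated transcripts, which start at 3249340, 3249590 and 3250594. The mir-282 hairpin lies at 3251022 to 3251118, inside the transcripts that start at 3249340 and 3249590. With its flanks the window runs from 3243015 to 3259504, or 16.49 kb, and it also touches CG12078, lncRNA:CR45424 and the 5′ end of ckd.

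The sequences at 6 of the 7 IDR members are given to show their base composition and which short motifs stand at their summits. They are read from the Release 6 reference on the plus strand. Capitals mark the motifs GAGAG and AGGTCA, on either strand, within 50 bp of the summit. The region at the start of CG43389 is printed only up to the base before that start, and the coding one only as the coding bases centred on its summit.
Far upstream region, chr3L:3246546-3246666: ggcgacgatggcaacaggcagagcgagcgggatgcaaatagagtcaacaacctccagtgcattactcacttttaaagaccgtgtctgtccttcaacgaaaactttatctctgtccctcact
Its near neighbour, chr3L:3246734-3246839: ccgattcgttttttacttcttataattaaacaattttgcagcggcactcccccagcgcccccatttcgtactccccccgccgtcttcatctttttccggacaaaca
Near upstream region, chr3L:3247162-3247421: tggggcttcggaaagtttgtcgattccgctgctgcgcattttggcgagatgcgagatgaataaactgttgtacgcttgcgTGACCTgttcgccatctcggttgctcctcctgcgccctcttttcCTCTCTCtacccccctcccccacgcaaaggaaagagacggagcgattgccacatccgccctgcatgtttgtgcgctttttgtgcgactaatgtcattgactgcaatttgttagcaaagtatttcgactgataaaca
Start-site region, chr3L:3247776-3248014: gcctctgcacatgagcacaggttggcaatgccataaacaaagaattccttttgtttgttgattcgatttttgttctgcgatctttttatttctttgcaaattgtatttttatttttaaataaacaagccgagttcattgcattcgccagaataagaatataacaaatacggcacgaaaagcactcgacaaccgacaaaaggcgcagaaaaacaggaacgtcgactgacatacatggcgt
Coding region of CG43389, chr3L:3248664-3248762: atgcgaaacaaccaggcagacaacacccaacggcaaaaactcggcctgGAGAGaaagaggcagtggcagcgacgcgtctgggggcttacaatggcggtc
Region between the genes, chr3L:3249080-3249223: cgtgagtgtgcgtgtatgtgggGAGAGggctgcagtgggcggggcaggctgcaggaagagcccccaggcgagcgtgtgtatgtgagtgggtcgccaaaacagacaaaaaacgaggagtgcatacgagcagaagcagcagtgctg

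A pair of very strong regions framed CG43389. Their height is given as the deposited signal, on the scale of the authors' peak caller, which differs between lists and is compared between them only by rank (rank 1 is the strongest). The region between the genes had its summit at 3249152, 188 bp upstream of the nearest lncRNA:CR43626 start, with a signal of 318.2 and rank 12 in the IDR list. It ranked 6 in replicate 1, with a signal of 188.8, and 45 in replicate 3, with a signal of 123.1. The far upstream region, with its summit at 3246609 and 1406 bp upstream of the CG43389 start, had a signal of 301.9 and rank 14. It ranked 10 in replicate 1, with a signal of 171.3, and 38 in replicate 3, with a signal of 126.9. Both were thus among the strongest regions of each list, and their order was exchanged between the replicates. These summits lay 2543 bp apart, and no other pair of regions at rank 14 or better in the IDR list stood as close. Both limits, the rank and the distance, were taken from this pair at a selected locus, so this only describes it.

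The other 5 members formed a much lower tier, with ranks of 717 to 1130 of 1476. Its signals ran from 73.3 to 87.2, against a median of 85.9 over all IDR regions and a last IDR signal of 65.3. The nearest to the far upstream region was its neighbour at 3246809, 1206 bp upstream of CG43389, with a signal of 80.4 and rank 879. Its rank in replicate 3 was 176, with a signal of 75.4, whereas the list of replicate 1 had nothing at its summit. The near upstream region at 3247292, 723 bp from the CG43389 start, had a signal of 87.2 and rank 717. It ranked 205 in replicate 1 and 1878 in replicate 3, with signals of 71.1 and 31.4. The start-site region at 3247906 lay 109 bp upstream of CG43389, with a signal of 74.7 and rank 1061. This one ranked 2038 in replicate 1 and 677 in replicate 3, with signals of 30.3 and 48.0. The replicates thus put these upstream regions in different orders.

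The remaining members lay inside transcribed sequence. The coding region had its summit at 3248713, in the coding exon of CG43389 and 698 bp downstream of its start, with a signal of 73.3 and rank 1130. It ranked 418 in replicate 1 and 4080 in replicate 3, with signals of 55.0 and 23.6. The exonic region of lncRNA:CR43626 spanned 3251274 to 3251533 with its summit at 3251404, 382 bp from the annotated 5′ end of mir-282, with a signal of 78.0 and rank 958. It ranked 1339 in replicate 1 and 626 in replicate 3, with signals of 36.1 and 49.5. A coding summit was rare in the series: 11 of the 1476 IDR summits (0.745%) lay in coding sequence, and 58 (3.93%) in exons of noncoding RNAs. Of the 11, 6 lay over 500 bp from any annotated start, the one in CG43389 among them.

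**Figure D1:**
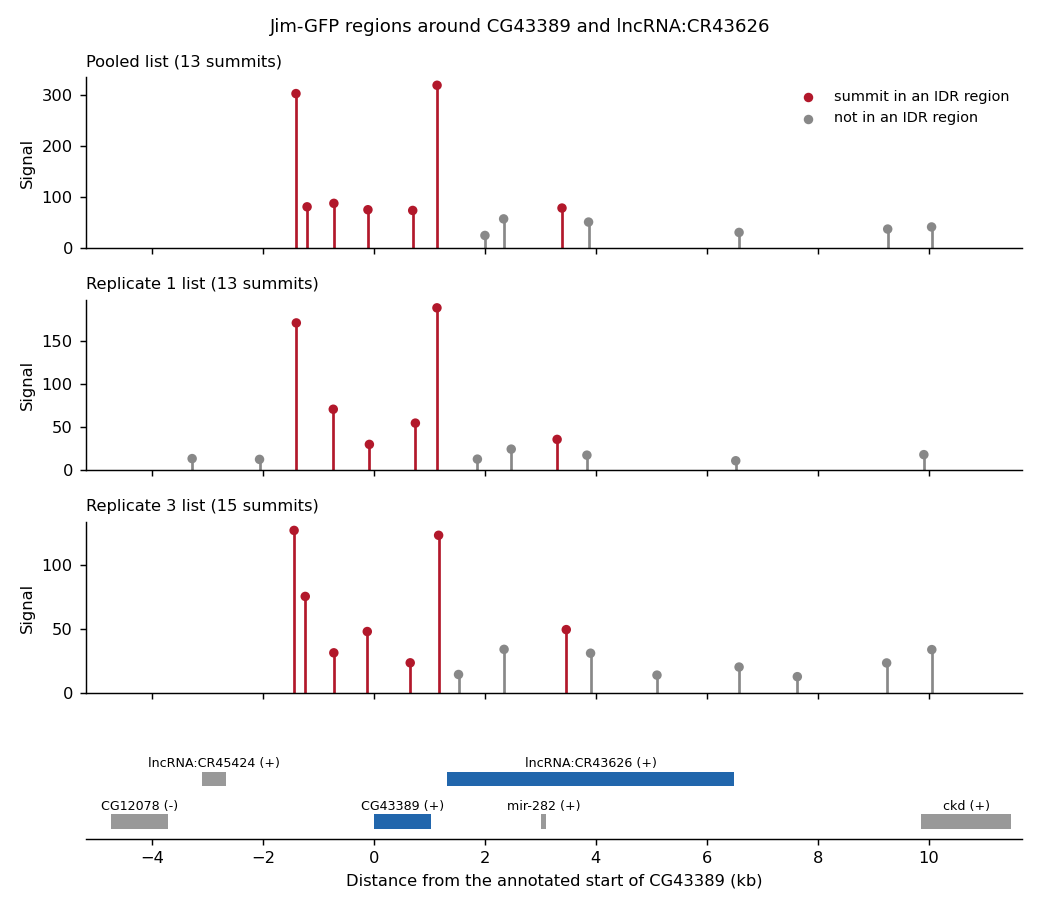
Signal of each region (vertical axis, on the scale of its own list) at its summit's distance from the annotated CG43389 start (horizontal axis, kb), for the pooled list and the lists of replicates 1 and 3, above the genes of the window with their strands. Red marks summits in an IDR region: the pair with pooled signals of 301.9 and 318.2 stands above the 5 others at 73.3 to 87.2. The 6 grey pooled regions are weaker by construction.

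The pooled list held further regions in the window. They were weaker than the IDR members by construction, since the IDR list held the 1476 strongest pooled regions. The 6 pooled regions of the window outside the IDR list had signals of 24.4 to 56.8 and ranks of 1996 to 18769, and all lay downstream of the region between the genes. The strongest, at 3250352 in lncRNA:CR43626, ranked 1996 in the pooled list and 1556 in replicate 3. Replicate 1 had an overlapping region at 3250384 to 3250593, off that summit, with rank 3198. The next, at 3251883, had a pooled rank of 2543 and ranked 7663 in replicate 1 and 1920 in replicate 3. Another, at 3258066, lay 89 bp from the start of ckd and ranked 4243 in the pooled list and 1581 in replicate 3. Replicate 1 listed nothing at its summit but had an overlapping region at 3257822 to 3258031, with rank 6959. In the pooled list 7 of the 13 regions of the window were in the IDR list, against 4.92% of the 30000 pooled regions; the locus was selected on this, so nothing is read from it.

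**Figure D2:**
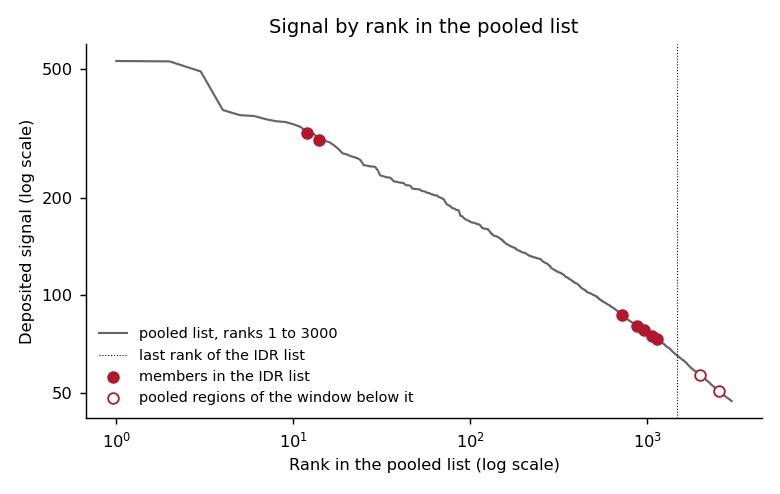
Deposited signal (vertical axis, log scale) against rank (horizontal axis, log scale) in the pooled list, as a grey line, with the dotted line at the last rank of the IDR list, 1476. Filled points are the 7 IDR members, with ranks 12 and 14 apart from the 5 at 717 to 1130, and open points are the pooled regions of the window at ranks 1996 and 2543.

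The IDR summits thinned out beyond the window on the upstream side and ended inside it on the downstream side. The nearest IDR summit outside lay at 3242364, 651 bp before the window, with a signal of 101.4 and rank 477. Its ranks were 447 in replicate 1 and 1114 in replicate 3. The next lay at 3239974, 396 bp from the start of CG17746, with a signal of 83.0. The outermost IDR member on that side, the far upstream region, lay 3594 bp inside the window. On the downstream side the last IDR member, the exonic region, lay 8100 bp inside the window. No IDR summit followed until 3304255, with a signal of 79.4, in the zinc transporter gene ZnT63C. Weaker pooled regions did continue past that edge, the nearest at 3259956, 452 bp outside, with a pooled rank of 7206.

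The members were packed far more tightly than IDR regions elsewhere, which is the property that selected them. The gaps between neighbouring summits, in order along the arm, were 200, 483, 614, 807, 439 and 2252 bp. The whole row of 7 thus spanned 4795 bp. The median distance from a summit to the nearest other IDR summit was 439 bp for the members and 10529 bp over all 1476 IDR regions. Another IDR summit lay within 1 kb of 6 of the 7 members and of 215 IDR summits in all (14.6%). IDR regions covered 8.56% of the window and 0.279% of the 6 arms. No other stretch of the arms held as many IDR summits in as short a span or held 6, while 3 separate stretches, this one included, held at least 5 and 11 held at least 4.

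The dense row did not come with a long gene. In a window of the gene body and 5 kb on either side, 15 of 17683 annotated genes (0.0848%) held at least 7 IDR summits, in 11 separate loci, while 14382 genes (81.3%) held none. At this locus 5 genes shared nearly the same summits: CG12078 and lncRNA:CR45424 had 8 each, and CG43389, lncRNA:CR43626 and mir-282 had 7 each. The other 10 were 12162 to 149629 bp long. They included sbb, a transcriptional corepressor gene with 13 summits, tara with 10, and jim itself with 9. Among genes no longer than lncRNA:CR43626, 14171 in all, the most outside the locus was 6, at lncRNA:Vinr and lncRNA:CR44619, which share 1 locus on X. The bodies of CG43389 and lncRNA:CR43626 alone held 1 IDR summit each, so most of the row lay in the flanks and in the 295 bp between the genes.

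**Figure D3:**
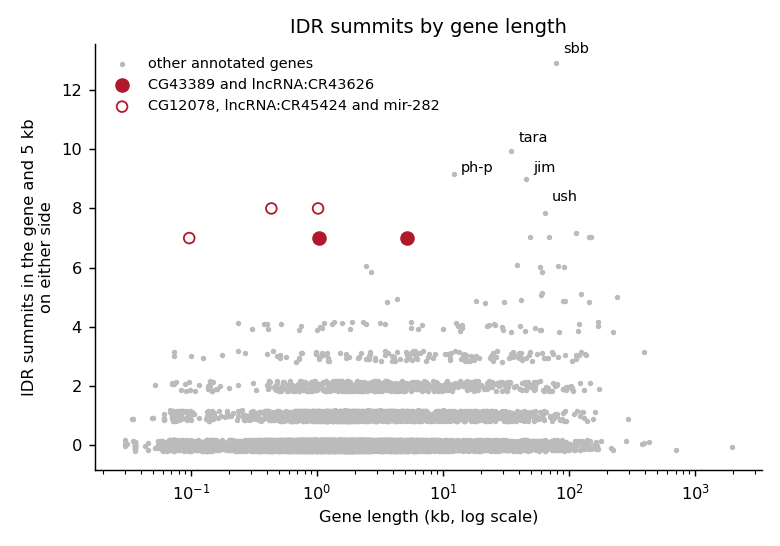
IDR summits in each annotated gene and 5 kb on either side (vertical axis; grey points spread slightly around whole numbers) against gene length (horizontal axis, kb, log scale). CG43389 and lncRNA:CR43626, filled red points at 7, and their neighbours, open points at 7 and 8, are the short genes with the most summits, while the other genes with 7 or more are 12162 bp or longer.

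Equal stretches of the genome were also counted, without regard to genes. The 6 arms were divided into 8115 tiles of 16490 bp, of which 7026 (86.6%) held no IDR summit. The only tile with at least 7 lay at jim, on 3L from 22822161 to 22838650. A tile boundary split the row of 7 at CG43389, with 4 on one side and 3 on the other, so it did not count among them. The tile with the 4 held 6 summits in all, as it also contains those at 3239974 and 3242364 outside the window.

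Most members were found in both replicates, but their ranks differed between the lists. An IDR region counted as found when its summit lay in a region of the replicate list. This held for both lists at 6 of the 7 members and at 1367 IDR regions (92.6%). Restricted to the 1476 strongest regions of each replicate, it held for 3 of the 7 members, namely the leading pair and the exonic region, and for 739 IDR regions (50.1%). Of the members, 5 were among the strongest of replicate 1 and 5 among those of replicate 3, against 1044 (70.7%) and 1094 (74.1%) of all IDR regions. These shares describe the lists and were not tested.

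The rank of a member changed between replicates by 2.14 to 9.76 times. The coding region moved most, with a rank number 9.76 times as high in replicate 3 as in replicate 1, a shift larger than that of 90.3% of the 1367 IDR regions found in both lists. The near upstream region moved 9.16 times and the region between the genes 7.5 times, both also towards a better rank in replicate 1. The far upstream region moved 3.8 times in the same direction. The start-site region moved 3.01 times and the exonic one 2.14 times, with the better rank in replicate 3. The median over the IDR regions was 2.35 times, so 5 of the 6 members moved more than the typical IDR region. With 1 list per replicate, no error can be put on a single rank.

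**Figure D4:**
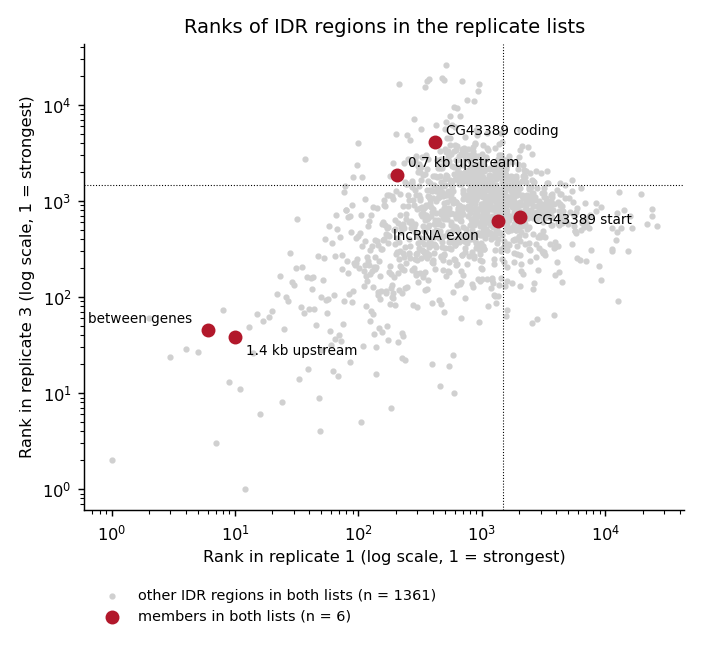
Rank in replicate 3 (vertical axis, log scale) against rank in replicate 1 (horizontal axis, log scale) for IDR regions found in both lists, with the dotted lines at rank 1476. The region between the genes and the far upstream region lie at the strong end of both lists, and the other 4 members spread from 205 to 2038 in replicate 1 and from 626 to 4080 in replicate 3.

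The direction of these shifts was set beside base composition after the ranks were seen, and the members gave a mixed picture. GC content in the 101 bp around the summit was 60.4% at the near upstream region and at the region between the genes, and 58.4% at the coding region. These 3 had the largest log2 ratios of the rank in replicate 3 over that in replicate 1, at 3.20, 2.91 and 3.29. The far upstream region had 45.5% GC and a log2 ratio of 1.93. The exonic region had 41.6% GC and the start-site region 28.7%, with log2 ratios of -1.10 and -1.59. The neighbour of the far upstream region, which has no rank ratio, went the other way: it had 51.5% GC, ranked 176 in replicate 3 and was not found in replicate 1. Of the 6 members with a ratio, the 4 with the most GC ranked better in replicate 1 and the 2 with the least in replicate 3.

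Over the IDR list the lean towards replicate 1 at high GC was weak. Across the 1367 IDR regions found in both lists, which share the 2 libraries, Spearman's rho between GC content and the log2 rank ratio was 0.292 and Pearson's r was 0.317. Of the 417 regions with the most GC (50.5% to 70.3%), 58.3% ranked better in replicate 1, against 36.5% of the 496 with the least (22.8% to 42.6%). The replicates also differed in labelled library size range, and its part in these ranks was not tested.

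**Figure D5:**
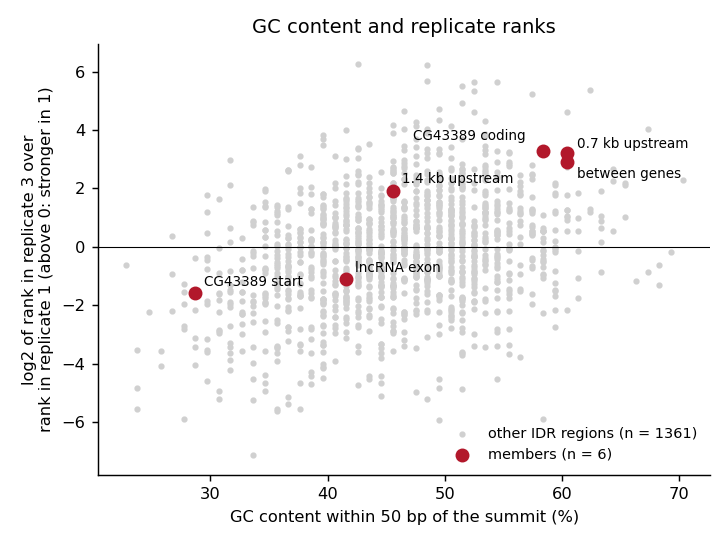
Log2 of the rank in replicate 3 over the rank in replicate 1 (vertical axis; above 0 means stronger in replicate 1) against GC content within 50 bp of the summit (horizontal axis, %), for IDR regions found in both lists, which leaves out the member at 51.5% GC. The members at 58.4% and 60.4% GC lie between 2.91 and 3.29, and those at 28.7% and 41.6% GC lie below 0.

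Summit positions also shifted more between lists at the members than at a typical IDR region. The median absolute distance between the IDR summit and the replicate summit was 18.5 bp at the members and 12 bp over all IDR regions in replicate 1. In replicate 3 it was 33 bp at the members and 9 bp over all IDR regions. The largest shifts were at the exonic region, at -88 bp in replicate 1 and 77 bp in replicate 3. The region between the genes was the most stable in replicate 1, at -2 bp, but shifted by 28 bp in replicate 3. There the near upstream region shifted least, at -1 bp.

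In the IDR list, region width separated part of the row from the rest. The most frequent IDR width was 260 bp, and 71 IDR regions (4.81%) were narrower, 63 of them within the strongest 100. Of the members, 3 of 7 were narrower: the region between the genes at 144 bp, the far upstream region at 121 bp and its neighbour at 106 bp. The neighbour differed from most narrow regions in being weak, at rank 879, with its summit 200 bp from that of a region at rank 14. Only 4 IDR summits in the whole list had another within 300 bp, this pair among them.

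The share of members near an annotated start was below that of all IDR regions, on a count of only 7 members. An IDR summit lay within 500 bp of a start for 3 of the 7 members, against 836 (56.6%) of the IDR regions. These were the start-site region of CG43389, the region between the genes, close to the lncRNA:CR43626 start, and the exonic region. The exonic region counted only through the annotated 5′ end of mir-282, which is a hairpin end and not a transcription start, and its nearest lncRNA:CR43626 start lay 810 bp away. By annotation at the summit, 5 of the 7 members were intergenic, 1 was coding and 1 was in a noncoding exon. Over all IDR regions 391 (26.5%) were intergenic, and introns held 634 (43.0%).

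Around the cluster, summits at starts were scattered rather than continuous. Of the 32 other genes with a start within 50 kb of the window, 5 had a start within 500 bp of an IDR summit, as both CG43389 and lncRNA:CR43626 did, against 6.08% of all annotated genes. The 5 were CG14966 at 38 bp, CG32276 at 65 bp, gry at 108 bp, mir-282 at 382 bp and CG17746 at 396 bp. The first 3 share 2 closely placed IDR summits, at 3197669 and 3198982. In the case of mir-282 the summit is that of the exonic region, itself a member, and the annotated 5′ end is a hairpin end. CG12078, lncRNA:CR45424 and ckd, the other genes that touch the window, had their nearest IDR summit 1930, 1613 and 6474 bp from a start.

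Outside the locus, the 5 genes with the most similar regions in the lists were all longer than lncRNA:CR43626. Genes whose windows overlap that of the cluster were left out, since they share its summits (mir-282 has the same 7), and 1 gene was taken per stretch of overlapping windows. Likeness was measured over 4 values per gene window, scaled by their spread over 3221 genes: the number of IDR summits and the log2 of the strongest signal in the pooled list and in each replicate list. CG43389 and lncRNA:CR43626 share their summits and had the same values, 7 summits and strongest signals of 318.2 (pooled), 188.8 (replicate 1) and 126.9 (replicate 3). Nearest outside the locus were Tlk, a protein kinase gene, at a distance of 2.02 with 7 summits and a strongest pooled signal of 205.5, and InR, the insulin receptor gene, at 2.03 with 7 and 206.8. Then came ush, which encodes a zinc finger cofactor of GATA factors, at 2.08 with 8 summits and 233.7, and lncRNA:CR44999 at 2.2 with 7 and 194.8. The Polycomb group gene ph-p, at 2.41 with 9 summits and 360.2, was the only one of the 5 with a stronger pooled region than the cluster.

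Few of the short motifs searched were found at the member summits, and other motifs or looser forms of these were not searched. Of 11 short motifs searched on either strand within 50 bp of each summit, 9 had no match at any member. Some of the 11, among them the GAGA factor motif and the long run given below, were known from an earlier analysis of these lists. Their shares of IDR and other pooled regions are therefore descriptions and not an independent comparison. GAGAG, the core of the element read by GAGA factor, had a match at 3 of 7 members, the near upstream, coding and intergenic regions, against 25.5% of IDR regions and 14.7% of the 28524 other pooled regions. At the near upstream region 2 overlapping matches on the minus strand ended at the summit, from -6 to -2 and -4 to 0 bp. At the coding region the match ran from -1 to 3 bp of the summit, and at the region between the genes it lay 50 bp away. AGGTCA, a nuclear receptor half-site, had 1 match, at the near upstream region, against 1.42% of IDR regions. A match is a description of letters in the window and not a binding site.

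Among the motifs with no match was AAAAAAAA, a run of 8 A or, on the other strand, T, which 17.4% of IDR regions and 7.55% of other pooled regions held. The repeat CACACACA was held by 7.18% of IDR regions, the forkhead motif TGTTTAC by 4.34%, the DREF motif TATCGATA by 1.63% and the Zelda motif CAGGTAG by 0.61%. The GATA factor motif GATAAG was held by 3.86%, the E-box CACGTG by 1.36%, the AP-1 motif TGANTCA (N for any base) by 2.03% and the TATA box TATAAA by 6.17%. No match says only that these letters are not in the window. Most of these motifs were rare over the IDR list too, so their absence at 7 members says little. At the members the longest run of A or of T was 4 to 6 bases, against a median of 5 over IDR regions. At least 1 of the 11 motifs was present at 3 of 7 members and at 812 IDR regions (55.0%). The median GC content was 51.5% at the members, from 28.7% to 60.4%, against a median of 45.5% over IDR regions with quartiles of 40.6% and 51.5%. Around the summits the row was therefore mixed in composition, with the AT-rich start-site region between the GC-rich near upstream and coding regions. Over its whole printed sequence the near upstream region had 51.2% GC. This was close to the 48.8% of the far upstream region and the 48.1% of its neighbour.

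No long repeat linked the members. The longest run of bases common to a pair of the 7 regions, on either strand, was 13 bp, gtcgccaaaacag, in the region between the genes at 3249169 to 3249181 and in the exonic region of lncRNA:CR43626 at 3251520 to 3251532. It was picked out after all 21 pairs had been compared, of which the next longest shared 11 bp and the median 8 bp. A run of that length was shared by 2.53% of the 1088550 pairs of IDR regions. This one occurred 9 times on the 6 arms and in 2 IDR regions, which are the members it was picked from. It began 17 bp from the summit in the region between the genes and 116 bp from it in the exonic region.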

How the data were processed

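Text notes deposited with the files say that a replicate list was made from the alignment of that replicate with a control, the pooled list from the 2 alignments with a control, and the IDR list from these 3 lists. The sources used here do not name an aligner, a peak caller or an IDR threshold. Region height is the deposited signal, in units of the authors' peak caller, and served only to rank regions within a list. The IDR list held the 1476 strongest regions of the pooled list.

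The dm6 lists were read on arms 2L, 2R, 3L, 3R, 4 and X, and genes with a symbol came from Ensembl release 115 (BDGP 6.54), transposable elements left out. The dm3 lists were not used. Named genes are the members, the genes that touch the window, the nearest starts and the 5 most alike genes per member. The members, the lists and some of the motifs were chosen with earlier results of these data known, so counts are descriptions and no test was run. Counting functions were tested on simulated regions. Alternatives changed the flank, the placing point, the list length, the replicate, the overlap and the motif window. Software was pandas 2.3.3, numpy 2.4.6, matplotlib 3.10.9 and scipy 1.17.1 under Python 3.11.15.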

Additional observations from a re-analysis of the deposited data

How the results depend on the processing

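Of 49 alternatives, 38 kept a count within 1.5 times of its reported value and 11 did not. The 7 IDR summits of the window became 2 with no flank and 3 in the strongest 738 regions of the IDR list. The 1476 strongest regions of a single replicate gave 5 summits without replicate 1 and 5 without replicate 3. The 13 pooled summits became 5 with no flank and 22 with a flank of 10 kb, and were 15 without replicate 1 and 13 without replicate 3. The 6 members found in both replicates became 3 in the strongest regions of each. The 15 genes with at least as many IDR summits as the members became 867 with no flank, where the members hold 1 each, and 35 to 42 when 1 replicate was left out: 35 without replicate 1 and 42 without replicate 3, where the members themselves hold 5. The 1 tile with at least 7 summits became 2 when the tiles were shifted. Summits within 300 bp counted once, an alternative chosen after seeing the data, left 6 IDR summits and 22 genes. Of 22 changes of the motif window, 2 moved a count: GAGAG was found at 5 members within 100 bp, where 43.2% of IDR regions had it, and AGGTCA at 0 within 25 bp. Motifs with no match within 50 bp stayed at 0, which within 25 bp could not be otherwise. They are counted among the 38 kept, so that number says little about the other counts. The flank changes follow from the construction of the window, and the cause of the other moves was not tested. No paired analysis was possible because the replicates form a single group. Read depth is unknown, so whether a region missing from one list lay just under its limit is not known.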
